A study of Mus musculus with 4 samples.

Results

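The collagen gene family was followed through 4 single-cell libraries of mouse hair follicle mesenchyme from mice of 18, 12 and 2 months. Its members were taken as every gene whose symbol has the form Col, a number, the letter a and a number. This gave 44 of the 27999 genes counted. They comprise 11 fibrillar collagens, 6 basement membrane collagens, 9 fibril-associated collagens and 18 others, which are the beaded filament chains of type VI, the short chain networks, the anchoring fibril collagen, the transmembrane collagens, the multiplexins and 2 chains with no settled place.

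Each library came from 2 pooled mice on a C57BL/6J background. The 18-month library and its 2-month partner were made from α-SMACreERT2:RosaYFP mice with version 2 of the 10x Genomics 3' chemistry. The 12-month library and its 2-month partner were made from α-SMACreERT2:RosaTDTomato mice with version 3. In all groups a tamoxifen pulse on days 3 and 4 after birth had switched on the reporter in cells with an active α-SMA (Acta2) driver, which marks dermal stem cells of the follicle and the cells that descend from them, along with any other cell in which the driver was active. For each library, 5000 reporter-positive and 5000 Cd26-positive cells, all of them also Itga9- or Cd200-positive, were sorted and mixed, so the share of each cell type was set in part by the sort. The ages are compared within a chemistry, and each comparison has 1 library a side unless a test over all 4 is named.

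Collagens are secreted or membrane-bound proteins whose chains wind into helical trimers, some from copies of a single chain and others from different chains. Fibrillar collagens, led by types I and III, give dermis its tensile strength. Type IV forms the sheet-like network of basement membranes, and fibril-associated collagens sit on the surface of fibrils. The hair follicle is wrapped by a contractile dermal sheath and instructed by a cluster of fibroblasts at its base, the dermal papilla, which lies inside a basement membrane and is rich in proteoglycans. Arrector pili are the small smooth muscles that raise the hair.

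After filters, 2431 cells at 18 months and 1677 at 2 months (version 2), and 3964 cells at 12 months and 5388 at 2 months (version 3), were kept. Their median depth was 6588, 6260, 11786 and 11934 UMIs per cell, a UMI being a tag that counts each captured RNA molecule once. Xist had 0.104 and 0 CPM at 18 and 2 months with version 2, against 849 and 831 CPM at 12 and 2 months with version 3, so the sex of the mice, the reporter, the chemistry and the depth all changed between the pairs and not within them. The row for the yellow fluorescent protein held 1631 and 1626 CPM in the 12-month and 2-month version 3 libraries, whose labels name TdTomato. The series text gives 2707 and 1906 recovered cells for its samples 1 and 2 without naming their ages. The file labelled 18 months holds 2727 barcodes and its 2-month partner 1906. The sample labels give the larger number, 3776, to 18 months and 2604 to 2 months, and the groups below follow those labels. Should sample 1 of the series text be the 2-month library, the version 2 files would stand under exchanged ages, every ratio of 18 over 2 months printed here would be inverted, and the tests over the 4 libraries would change with it. The sources used here do not settle this. Cell barcodes shared between the libraries of a pair numbered 7 in version 2 and 84 in version 3.

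Cells were clustered without any collagen gene and named from marker lists that hold none. Sheath-like, fibroblast-like and papilla-like cells were the main mesenchymal classes. The sheath-like class was made of clusters that belonged mostly to a single library or chemistry. Cluster 10 held 221 cells at 18 months and 89 at 2 months in version 2. Cluster 9 held 1359 cells at 12 months, and cluster 19 held 1540 cells at 2 months in version 3. Cluster 5 alone was spread over all, with 99 and 114 cells at 18 and 2 months (version 2) and 267 and 337 cells at 12 and 2 months (version 3). Its name is not firm, resting on 4 sheath markers against 3 fibroblast and 2 papilla markers. In a finer clustering (resolution 1), a cluster of 840 cells likewise had Megf11, Npr3, Smoc1 and Prss35 among its top genes. That cluster was named papilla, with 3 markers each of papilla, sheath and fibroblasts. Macrophage and dendritic cell-like cells, 369 and 107 at 18 and 2 months and 752 and 675 at 12 and 2 months, also carried collagen UMIs. Their level is printed beside that of other classes. It is not a measure of background, since these cells also held UMIs of papilla and sheath markers. Differences of collagen level between classes are descriptions, since the classes were cut from the same cells.

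Of the 44 collagens, 43 had at least 10 UMIs over the 4 libraries, 34 had at least 100 and 16 had at least 10000, and 41 had a UMI in every library. The exception at the low end was Col2a1, the cartilage fibril collagen, with 2 UMIs in all. Because the protocol tags transcript ends, levels are given as CPM, each count scaled to a common total of UMIs, without scaling for gene length.

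Collagen transcripts made up 2.98% of UMIs at 18 months and 1.18% at 2 months in version 2, a ratio of 2.53 (95% counting interval 2.52 to 2.54). They made up 2.33% at 12 months and 2.14% at 2 months in version 3, a ratio of 1.09. All such intervals cover counting error only and say nothing of the spread between mice. The summed share was thus much higher at 18 months than in its partner and nearly level between 12 and 2 months. In bulk sums of this kind, more cells of a collagen-rich type and more collagen RNA per cell cannot be told apart, so the same sums are given by cell class.

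Fibroblast-like cells supplied 64.9% of collagen UMIs at 18 months and 39.0% at 2 months in version 2, where they were 29.6% and 12.9% of cells. In version 3 they supplied 23.0% at 12 months and 12.5% at 2 months, from 18.1% and 11.3% of cells. Sheath-like cells supplied 22.9% of collagen UMIs at 18 months and 34.3% at 2 months in version 2. In version 3 the sheath-like share was 67.2% at 12 months and 74.7% at 2 months. Papilla-like cells gave 2.64% and 9.28% at 18 and 2 months, and 3.37% and 6.16% at 12 and 2 months, although they were 20.8% and 32.6%, and 13.2% and 22.2%, of the cells. Per cell, fibroblast-like cells held 516 and 340 collagen UMIs at 18 and 2 months, sheath-like cells 362 and 302, and papilla-like cells 29.8 and 32.1. In version 3, fibroblast-like cells held 378 and 309 collagen UMIs per cell at 12 and 2 months, sheath-like cells 483 and 572, and papilla-like cells 75.5 and 77.1.

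**Figure D1:**
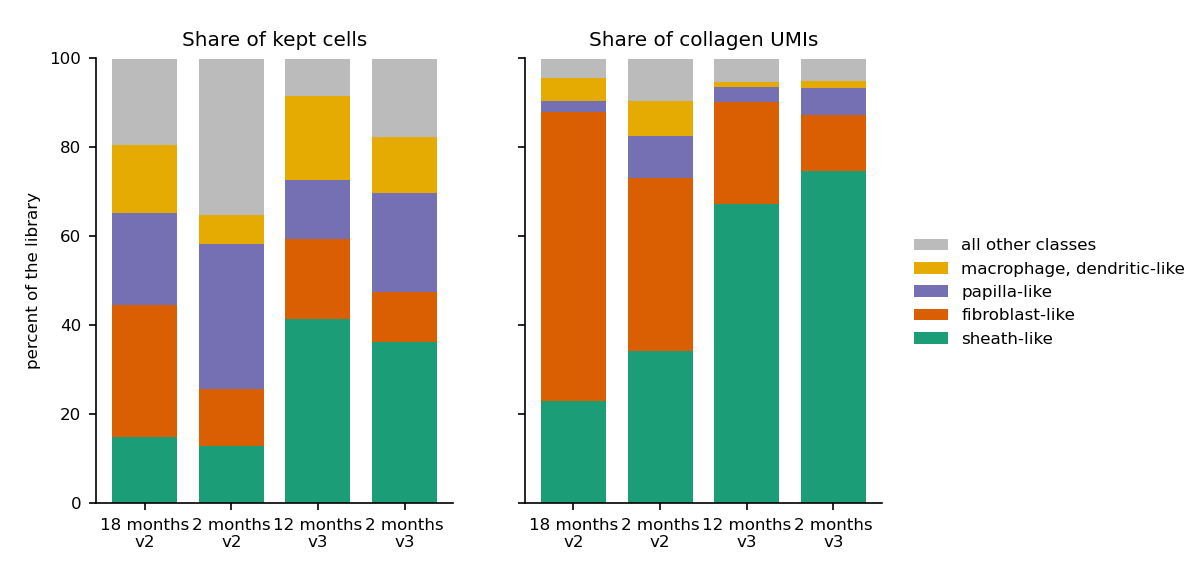
Share of kept cells (left) and of collagen UMIs (right) by cell class, as stacked percentages of each library, with 1 bar for each of the 4 libraries. Fibroblast-like cells give 64.9% of the 18-month and 39.0% of the 2-month collagen UMIs in version 2, and sheath-like cells give most of them in version 3.

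When each older library was reweighted to the cell class shares of its 2-month partner (9 classes with at least 10 cells on both sides), the 18-month ratio of summed collagen was 1.56 in place of 2.53. The 12-month ratio was 0.942 in place of 1.09. At those fixed shares fibrillar collagens were 1.70-fold at 18 over 2 months, fibril-associated collagens 1.43-fold and basement membrane collagens 1.13-fold, and the other subfamilies together stood at 0.978. The corresponding ratios of 12 over 2 months were 0.953, 0.977, 0.804 and 0.921. Col1a1, Col1a2 and Col3a1 together had a ratio of 1.72 at 18 over 2 months at fixed shares, against 1.11 for the remaining 41 collagens, and of 0.960 and 0.895 at 12 over 2 months. The fixed shares are those of classes and do not hold the clusters within a class.

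Col1a1, Col1a2 and Col3a1, which encode the chains of types I and III, held 84.6% of all collagen UMIs at 18 months and 73.1% at 2 months in version 2. They held 75.8% at 12 months and 72.6% at 2 months in version 3. Fibrillar collagens as a whole held 88.6% and 78.6%, then 83.2% and 80.6%. Basement membrane collagens held 1.88% and 3.32% at 18 and 2 months, and 4.20% and 5.39% at 12 and 2 months. Fibril-associated collagens held between 1.82% and 3.10%. In papilla-like cells the balance was different. Fibrillar collagens held 52.0% and 49.4% of collagen UMIs there at 18 and 2 months, and 47.1% in both version 3 libraries, while the beaded filament, transmembrane, multiplexin and other minor subfamilies held from 34.9% to 37.8%.

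Type I collagen is the main fibril of dermis, built from chains of Col1a1 and Col1a2. Col1a1 (chr11:94936224-94953042, plus strand, GRCm38) had 9089 CPM at 18 months and 3333 at 2 months in all kept version 2 cells, and 8358 CPM at 12 months and 7200 at 2 months in version 3. In fibroblast-like cells it had 20009 and 14164 CPM at 18 and 2 months, and 8678 and 6852 CPM at 12 and 2 months. In sheath-like cells it had 15154 and 13696 CPM at 18 and 2 months, and 13234 and 14405 CPM at 12 and 2 months. The class with the highest Col1a1 thus went with chemistry, fibroblast-like in version 2 and sheath-like in version 3. Papilla-like cells had 471 and 440 CPM of Col1a1 at 18 and 2 months, and 1118 and 783 CPM at 12 and 2 months. In version 2 this was below the 2759 and 3393 CPM in macrophage and dendritic cell-like cells at 18 and 2 months. In version 3 those cells had 627 and 1250 CPM at 12 and 2 months, so papilla-like Col1a1 lay under their level in 3 of the 4 libraries. Among classes with at least 50 cells, the one with the least Col1a1 lay below papilla-like cells in every library. It was the keratinocyte-like class at 18 and 12 months, with 154 and 248 CPM. In the 2-month libraries it was the arrector pili-like class, with 264 CPM in version 2 and 295 CPM in version 3.

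Col1a2 (chr6:4504814-4541544, plus strand) had 26711 CPM at 18 months and 14565 CPM at 2 months in fibroblast-like cells of version 2, and 10288 and 7467 CPM at 12 and 2 months in version 3. It was highest in fibroblast-like cells in 3 of 4 libraries. Col3a1 (chr1:45311538-45349706, plus strand), whose type III fibrils are typical of extensible tissue, was highest in fibroblast-like cells in all 4 libraries. It had 14369 and 11213 CPM there at 18 and 2 months, and 5607 and 3913 CPM at 12 and 2 months, against 3387 and 4093 CPM, and 2145 and 2643 CPM, in sheath-like cells.

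The minor fibrillar chains divided between sheath and fibroblasts. Col5a1 and Col5a2 encode type V, which nucleates type I fibrils, and both were highest in fibroblast-like cells in 3 of 4 libraries, with Col5a2 at 865 and 813 CPM at 18 and 2 months and at 719 and 559 CPM at 12 and 2 months. Col5a3, a chain of type V with a narrower distribution, was highest in fibroblast-like cells in all 4. It had 137 and 171 CPM in fibroblast-like cells at 18 and 2 months and 232 and 178 CPM at 12 and 2 months, and sheath-like cells held at most 9.70 CPM. Col11a1, best known as a minor fibrillar chain of cartilage, was highest in sheath-like cells in all 4 libraries, with 1749 and 1582 CPM at 18 and 2 months and 1760 and 2119 CPM at 12 and 2 months. Papilla-like cells had 148 and 178 CPM of Col11a1 at 18 and 2 months, and 287 and 280 CPM at 12 and 2 months. Macrophage and dendritic cell-like cells held 379 and 400 CPM, then 88.7 and 162 CPM, in the same order of libraries. The short fibrillar collagens Col24a1 and Col27a1 were also highest in sheath-like cells in all 4 libraries, Col27a1 between 63.3 and 83.5 CPM and Col24a1 between 4.38 and 6.81 CPM.

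Type IV genes lie in head-to-head pairs that share a start region, and the sequences at these starts are shown. Whether a shared start goes with a shared level was not tested. Col4a1 and Col4a2 make the network found in every basement membrane. By RefSeq on GRCm38.p6 the start of Col4a1 (minus strand) and that of Col4a2 (plus strand) overlap by 22 bases, in capitals in this plus-strand window at chr8:11312801-11312830.
Col4a1 and Col4a2: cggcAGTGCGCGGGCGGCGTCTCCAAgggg
Col4a4 (minus strand) and Col4a3 (plus strand), network chains of specialised membranes such as that of the kidney filter, start 71 bases apart. The whole of the sequence between their starts is at chr1:82586850-82586920, on the plus strand.
Col4a4 and Col4a3: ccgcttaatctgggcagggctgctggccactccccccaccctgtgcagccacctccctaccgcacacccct
Col4a6 (minus strand) and Col4a5 (plus strand), chains found together in basement membranes of smooth muscle, start with 1342 bases between them on the X chromosome. The 150 bases before each start, written along the strand of the gene, are at chrX:141475269-141475418 for Col4a5 and at chrX:141474077-141474226 for Col4a6, with a GC box in capitals.
Col4a5: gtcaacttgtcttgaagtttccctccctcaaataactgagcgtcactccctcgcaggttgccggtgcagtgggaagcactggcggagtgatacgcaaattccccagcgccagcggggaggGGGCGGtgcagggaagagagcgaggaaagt
Col4a6: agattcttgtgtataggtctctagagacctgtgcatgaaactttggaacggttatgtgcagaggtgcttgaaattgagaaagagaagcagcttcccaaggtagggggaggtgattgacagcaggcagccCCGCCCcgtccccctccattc
The motifs searched, on both strands, were GGGCGG (the GC box), CCAAT and TATAAA. Among 32851 windows of 150 bases before annotated starts, 28.6% held the GC box, 24.5% held CCAAT and 7.57% held TATAAA. Neither CCAAT nor TATAAA was in the stretches printed for Col4a3, Col4a4, Col4a5 and Col4a6, and the GC box was not in that between Col4a4 and Col4a3, which says only that those letters are not in these windows.

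Col4a1 and Col4a2 were highest in sheath-like cells in all 4 libraries. Col4a1 had 525 and 540 CPM there at 18 and 2 months, and 825 and 997 CPM at 12 and 2 months. Col4a2 had 602 and 560 CPM at 18 and 2 months, and 698 and 877 CPM at 12 and 2 months. Both were also present in papilla-like cells, Col4a1 at 139 and 189 CPM at 18 and 2 months and at 350 and 390 CPM at 12 and 2 months. In endothelium-like cells of the 2-month version 3 library, the only library with at least 50 of them, Col4a1 and Col4a2 were at 735 and 522 CPM. Col4a5 and Col4a6 lay elsewhere. They were highest in arrector pili-like cells in the 2 libraries with at least 50 such cells. In the 2-month version 2 and version 3 libraries these had 44.4 and 47.7 CPM of Col4a5 and 19.3 and 21.7 CPM of Col4a6. Cells with pericyte and vascular smooth muscle markers had 19.4 and 42.8 CPM of Col4a5 at 18 and 2 months in version 2. Among classes with at least 50 cells they were highest for both genes at 18 months. In sheath-like and papilla-like cells the highest level of Col4a5 in any library was 1.30 CPM. Col4a4 was highest in fibroblast-like cells in all 4 libraries, at 9.12 and 7.13 CPM at 18 and 2 months and 4.69 and 6.61 CPM at 12 and 2 months, and Col4a3 had 64 UMIs over all libraries.

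Type VI collagen forms beaded filaments close to cells from chains of Col6a1, Col6a2 and Col6a3. UMIs of each were counted in sheath-like, fibroblast-like and papilla-like cells. In version 2, macrophage and dendritic cell-like cells held 271 and 529 CPM of Col6a1 and 230 and 441 CPM of Col6a2 at 18 and 2 months, above the 168 and 208 CPM and the 157 and 193 CPM of papilla-like cells, so that the papilla-like levels of these chains in version 2 are not above background. Col6a3 in macrophage and dendritic cell-like cells was at 385 and 908 CPM at 18 and 2 months. In version 3 these cells held between 70.9 and 137 CPM of each chain, below papilla-like cells. Col6a3 had 1081 and 1640 CPM at 18 and 2 months in sheath-like cells, and 705 and 939 CPM at 12 and 2 months. In papilla-like cells Col6a3 had 441 and 603 CPM at 18 and 2 months, and 965 and 760 CPM at 12 and 2 months, and it was the type VI chain with the highest level there in every library. The chains of the second group, Col6a4, Col6a5 and Col6a6, were far lower, and Col6a6 was highest in sheath-like cells in all 4 libraries, at 25.3 and 14.0 CPM at 18 and 2 months and 50.1 and 39.4 CPM at 12 and 2 months.

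Papilla-like cells had the highest level of 5 collagens in all 4 libraries, which were Col9a1, Col9a2, Col15a1, Col23a1 and Col26a1. Col23a1 (chr11:51289920-51583918, plus strand), a transmembrane collagen, had 411 and 490 CPM there at 18 and 2 months, and 529 and 743 CPM at 12 and 2 months. In sheath-like cells it had 21.6 and 40.2 CPM at 18 and 2 months and 11.3 and 14.2 CPM at 12 and 2 months. Macrophage and dendritic cell-like cells held 65.8 and 231 CPM of it, then 17.3 and 42.9 CPM. Col15a1 (chr4:47208161-47313167, plus strand), a multiplexin of basement membrane zones, had 448 and 574 CPM in papilla-like cells at 18 and 2 months and 424 and 531 CPM at 12 and 2 months. Sheath-like cells had 320 and 424 CPM of Col15a1, then 251 and 343 CPM. Col26a1, a little studied collagen with no settled subfamily, had 4.21 and 20.5 CPM in papilla-like cells at 18 and 2 months and 15.9 and 33.5 CPM at 12 and 2 months. Col9a1 and Col9a2, fibril-associated chains known from cartilage, reached at most 17.8 and 8.06 CPM in papilla-like cells.

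Col12a1, Col14a1 and Col16a1, of the fibril-associated class, were spread over the mesenchyme. Col12a1 was highest in sheath-like cells in all 4 libraries, at 1012 and 829 CPM at 18 and 2 months and 819 and 880 CPM at 12 and 2 months. Col16a1 was highest in fibroblast-like cells in all 4, at 359 and 258 CPM at 18 and 2 months and 249 and 118 CPM at 12 and 2 months. Col14a1 lay between 73.4 and 251 CPM in sheath-like, fibroblast-like and papilla-like cells of all libraries. Among the remaining collagens, Col8a2, a short chain network collagen, was highest in sheath-like cells in all 4 libraries, at 114 and 93.9 CPM at 18 and 2 months and 117 and 127 CPM at 12 and 2 months. Col17a1, a part of the hemidesmosome that anchors keratinocytes, was highest in keratinocyte-like cells in each of the 3 libraries with at least 50 of them. It had 152 CPM at 18 months in version 2, and 141 and 147 CPM at 12 and 2 months in version 3. Col18a1, the other multiplexin, was highest in cells with pericyte and vascular smooth muscle markers in the 2 libraries with at least 50 such cells, at 270 and 356 CPM at 18 and 2 months in version 2. Over the 34 collagens with at least 100 UMIs, the class with the highest mean level was the sheath-like one for 12, the fibroblast-like one for 9 and the papilla-like one for 8. The 9 include Col10a1, whose UMIs lay in few cells and which was highest in sheath-like cells in 2 of 4 libraries. The 8 include Col14a1, which was highest in fibroblast-like cells in 2 of 4 libraries. At resolution 1 Col14a1 and Col5a2 were highest in sheath-like cells.

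**Figure D2:**
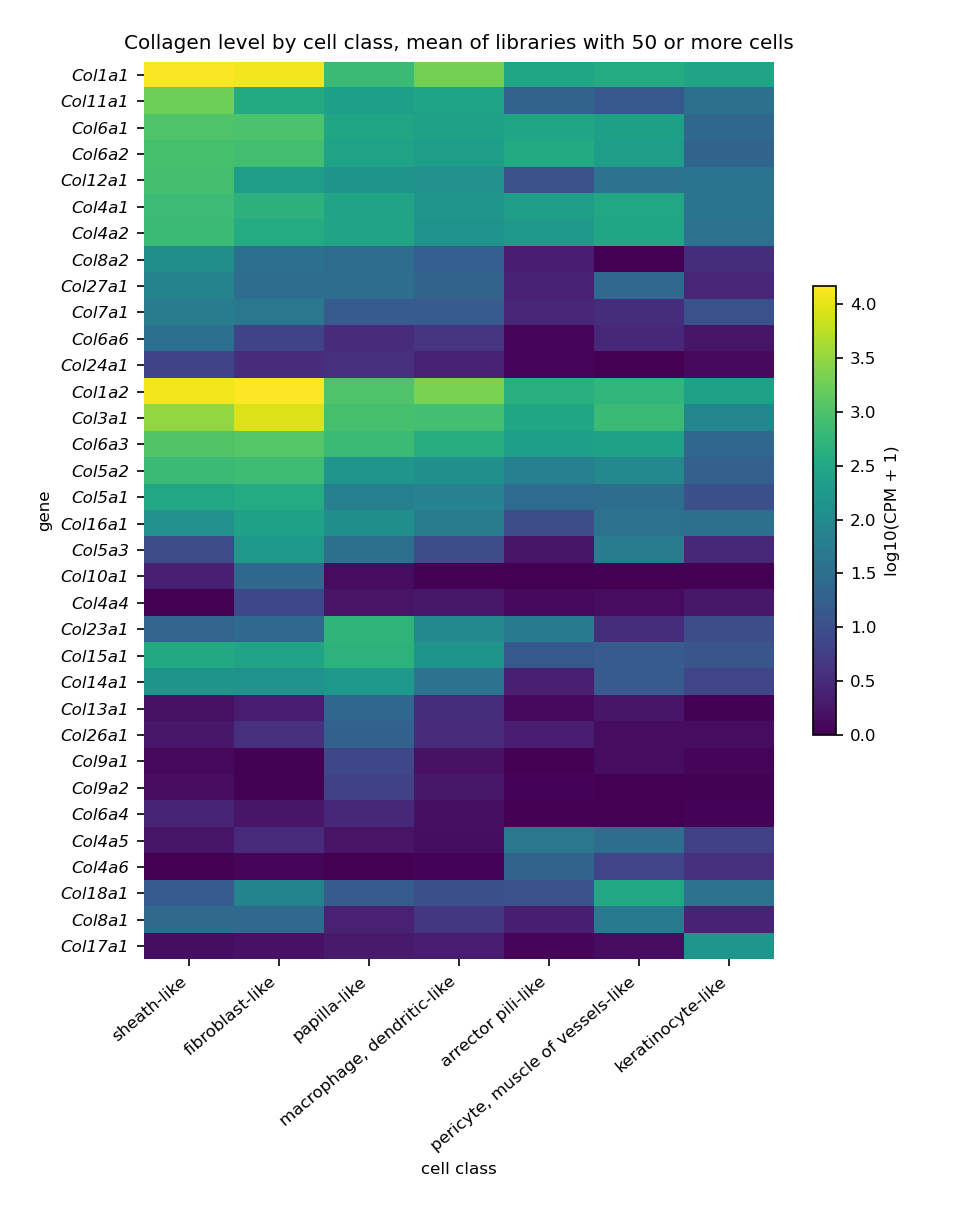
Level of 34 collagens with at least 100 UMIs (rows, grouped by the class in which they were highest) in 7 cell classes (columns), as log10 of CPM plus 1, each the mean over the libraries with at least 50 cells of the class. Col1a1, Col1a2 and Col3a1 are the brightest rows, Col23a1 and Col15a1 peak in papilla-like cells, Col4a5 and Col4a6 in arrector pili-like cells and Col17a1 in keratinocyte-like cells.

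The ratio of 2 chains within a library is free of the total that CPM divides by, though not of differences in capture between transcripts. Col1a1 to Col1a2 ran from 1.11 to 1.31 in sheath-like cells over the 4 libraries, from 0.749 to 0.972 in fibroblast-like cells and from 0.497 to 0.919 in papilla-like cells. The ranges of sheath-like and fibroblast-like cells did not overlap. In fibroblast-like cells the 18-month ratio was 0.749 against 0.972 in its 2-month partner, and the 12-month ratio 0.843 against 0.918. The ratio of Col3a1 to Col1a1 was 0.162 to 0.299 in sheath-like, 0.571 to 0.792 in fibroblast-like and 0.770 to 2.48 in papilla-like cells, so that the sheath-like range stood apart from the others. Col6a1 to Col6a2 was narrow, between 1.07 and 1.31 in these 3 classes and 4 libraries, and Col6a1 to Col6a3 was lowest in papilla-like cells, at 0.346 to 0.546, against 0.872 to 1.16 in sheath-like cells. Col4a1 to Col4a2 lay between 0.785 and 1.46 in the 3 classes, and Col4a5 to Col4a6 between 2.44 and 5.5 in all kept cells. By class Col4a5 to Col4a6 went from 1.11 in keratinocyte-like cells to 12.3 in sheath-like cells, the latter from 1 library. Col5a1 stayed under Col5a2 throughout, at 0.364 to 0.534 in all kept cells.

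**Figure D3:**
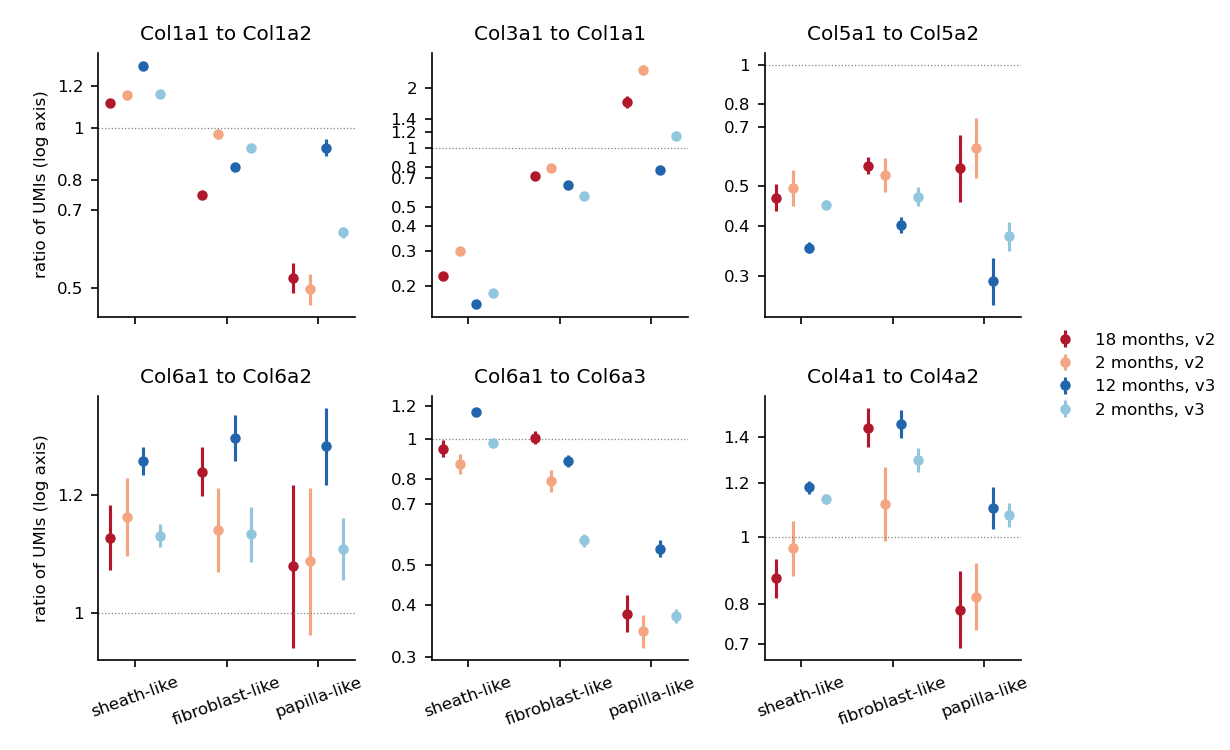
Ratio of UMIs of 6 chain pairs (panels, log axes) in sheath-like, fibroblast-like and papilla-like cells, 1 point per library with its 95% counting interval. Col1a1 to Col1a2 lies above 1 in sheath-like cells and under 1 in fibroblast-like and papilla-like cells in all 4 libraries.

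The question the ages pose is which collagens differ in older mice. In all kept cells at 18 over 2 months, 34 collagens had at least 30 UMIs over the pair. Of these, 17 were at least 1.5-fold higher and 6 at least 1.5-fold lower, where 16.8% and 10.0% of all genes were. Their median log2 ratio was 0.57, and that of all genes 0.12. At 12 over 2 months, 2 of 38 collagens were at least 1.5-fold higher and 9 lower, where 6.69% and 13.0% of all genes were, with a median log2 ratio of -0.07 against -0.11 over all genes. The high ones at 18 months included Col1a2 at 3.36-fold, Col1a1 at 2.73-fold, Col3a1 at 2.55-fold, Col12a1 at 2.08-fold, Col16a1 at 2.06-fold, Col5a1 at 2.04-fold and Col5a2 at 2.02-fold. In the 12 over 2 month comparison these 7 lay between 0.958 and 1.29. At fixed class shares the 18-month ratio of Col1a2 was 1.96 and that of Col1a1 1.67, and 10 collagens in place of 23 differed at least 1.5-fold. Fixed-share ratios were computed for collagens only, so whether the count over all genes falls likewise is not known.

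In all, 5 collagens passed 1.5-fold in the same direction in both pairs in all kept cells, and at fixed class shares Col26a1 and Col9a2 did. The share of all genes that passed in both pairs was not computed, so these counts cannot be called unusual. Col5a3 had 52.6 CPM at 18 months and 30.4 at 2 months (1.73-fold), and 52.1 CPM at 12 months and 31.8 at 2 months (1.64-fold). At fixed class shares Col5a3 stood at 1.27 and 1.24, under 1.5-fold in both pairs. Col26a1 had 0.781 and 6.04 CPM at 18 and 2 months (7.73-fold lower), and 1.84 and 6.96 CPM at 12 and 2 months (3.78-fold lower). Col9a2 had 0.677 and 1.56 CPM (2.30-fold lower), and 0.515 and 1.64 CPM (3.19-fold lower). At fixed shares Col26a1 stood at 0.267 and 0.415 and Col9a2 at 0.475 and 0.522. Each older library lay on the same side of its partner for these 3, although Col9a2 rests on 13 and 25 UMIs at 18 and 2 months and 26 and 115 at 12 and 2 months. Col4a5 had 3.44 and 6.04 CPM at 18 and 2 months and 0.990 and 5.57 CPM at 12 and 2 months, 1.76- and 5.63-fold lower. Col4a6 had 0.625 and 1.68 CPM, then 0.297 and 2.29 CPM, 2.69- and 7.69-fold lower. Beside the values of Col4a5 and Col4a6 stands the number of arrector pili-like cells, 17 and 65 at 18 and 2 months and 2 and 459 at 12 and 2 months. Both genes were highest in that class in the 2-month libraries. Cells with pericyte and vascular smooth muscle markers numbered 250 and 218 at 18 and 2 months in version 2. These held 19.4 and 42.8 CPM of Col4a5 and 5.05 and 7.92 CPM of Col4a6. The part of either class in these ratios was not tested. At fixed shares, from which arrector pili-like cells of the version 3 pair drop out since 12 months has under 10, Col4a5 stood at 0.938 and 0.583 and Col4a6 at 0.731 and 0.476. Col23a1 was lower in both pairs, at 0.723 and 0.432, and at fixed shares at 0.977 and 0.672.

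**Figure D4:**
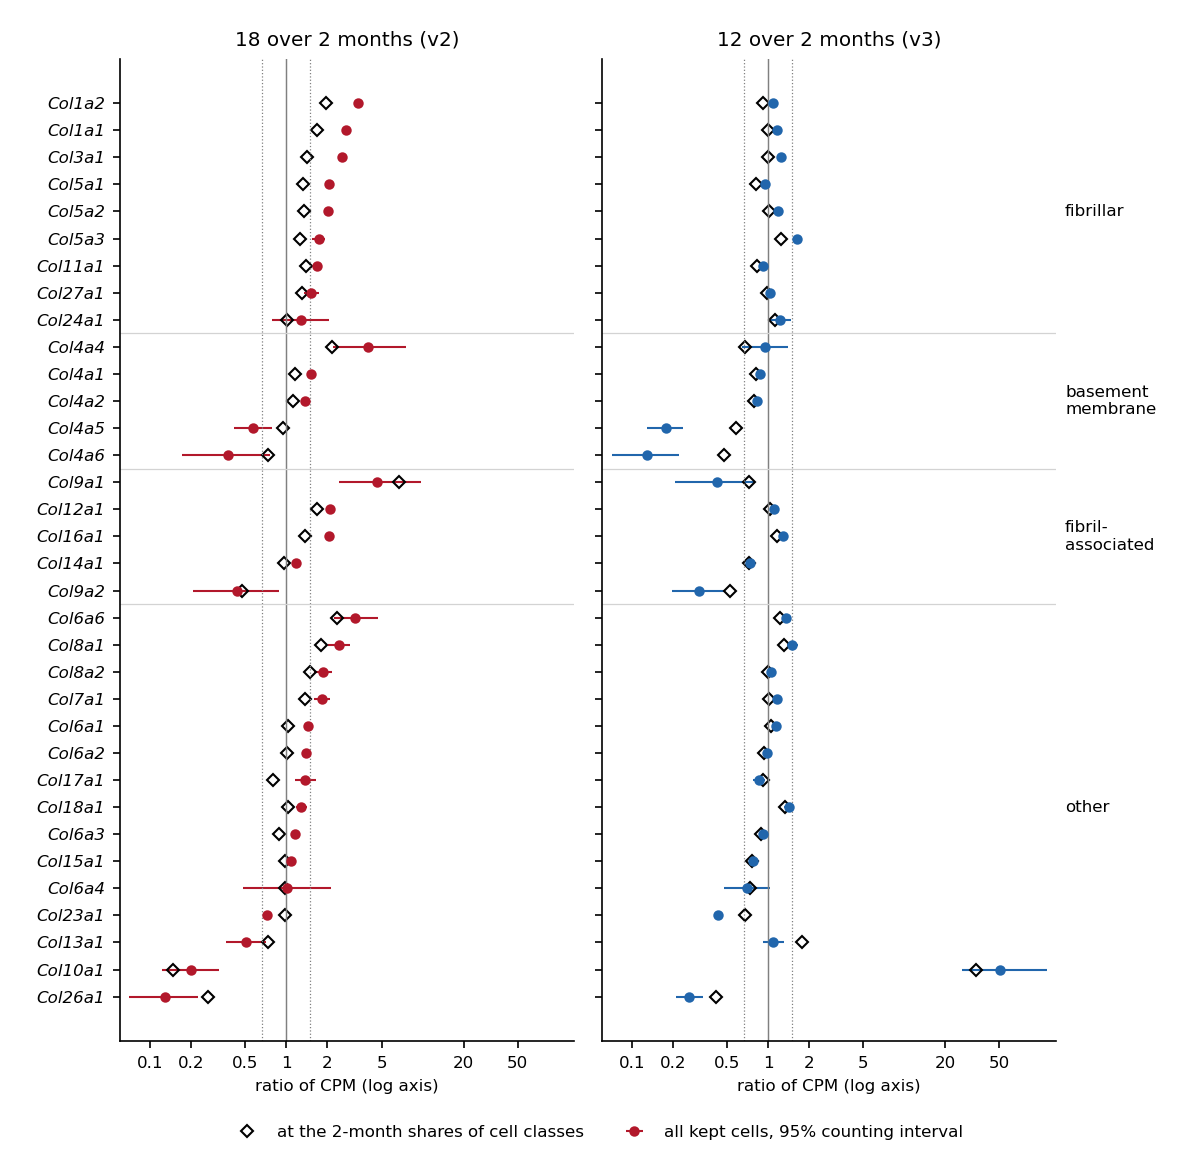
Ratio of CPM of 18 over 2 months (left, version 2) and 12 over 2 months (right, version 3) for collagens with at least 30 UMIs over each pair, on a log axis, with 95% counting intervals. Filled points are all kept cells and open diamonds the ratio at the 2-month class shares, dotted lines mark 1.5-fold either way, and the fibrillar group lies right of 1.5 at 18 months for Col1a1, Col1a2 and Col3a1 but near 1 at 12 months.

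A test over all 4 libraries compared the pools of 12 and 18 months with both pools of 2 months, by edgeR's quasi-likelihood test with chemistry as a covariate. That leaves 1 residual degree of freedom, and nothing separates spread between mice from spread between pools. In all kept cells none of the 38 collagens tested passed an adjusted p of 0.05 in edgeR, and neither did any of 15458 genes (0.0%). At an unadjusted p under 0.05 there were 12 collagens and 1698 genes (11.0%), and DESeq2 called 1 collagen, Col26a1, and 2.69% of all genes. The edgeR log2 fold change of Col26a1 was -2.34 ± 0.42 (SE), with an adjusted p of 0.268. That of Col5a3 was 0.75 ± 0.14, with an edgeR adjusted p of 0.275.

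Sheath-like cells, the class with the most collagen in version 3, differed little between ages in version 2 and were lower at 12 months in version 3, in summed collagen. Collagens were 4.10% and 3.95% of their UMIs at 18 and 2 months (ratio 1.04), and 3.35% and 3.91% at 12 and 2 months (ratio 0.857). In cluster 5, which had no fewer than 99 cells in any library, collagens were lower in both older libraries, at 1.61% and 2.1% of UMIs at 18 and 2 months (ratio 0.767) and 1.41% and 1.66% at 12 and 2 months (ratio 0.851). In cluster 10, the other main cluster of version 2, they were 4.46% and 5.71% at 18 and 2 months (ratio 0.782), so that both clusters went the other way from the whole class in that pair. In cluster 9, which held 1359 cells at 12 months and 76 at 2 months in version 3, collagens were 3.64% and 3.02% of UMIs at 12 and 2 months, again the other way from the class. At least 1.5-fold higher were 2 of 23 collagens and lower 2 at 18 months (all genes 6.85% and 6.99%), and 0 of 28 higher and 3 lower at 12 months (5.15% and 5.49%). In edgeR none of 26 collagens was called, where 1.2% of 12443 genes were (0.9% higher and 0.297% lower), while 10 had an unadjusted p under 0.05, as did 10.0% of all genes, and DESeq2 called 0 (0.567% of all genes). The main type VI chains Col6a1, Col6a2 and Col6a3 were below their 2-month level in both pairs without passing the test, whereas Col6a6 was above it in both. Col6a3 stood at 0.659 of its 2-month level at 18 months and at 0.751 at 12 months, with an edgeR log2 fold change of -0.48 ± 0.12 (SE) and an adjusted p of 0.101. Col6a1 was at 0.717 and 0.891, and Col6a2 at 0.74 and 0.794. Col8a1, a short chain network collagen known from vessel walls, had 35.7 and 21.3 CPM at 18 and 2 months and 30.4 and 21.1 CPM at 12 and 2 months, with an edgeR log2 fold change of 0.61 ± 0.15 and an adjusted p of 0.104.

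Fibroblast-like cells, taken as a class, held a larger share of collagen RNA in both older libraries. Collagens were 6.77% and 4.78% of their UMIs at 18 and 2 months (ratio 1.42), and 3.03% and 2.43% at 12 and 2 months (ratio 1.24). Type I and III chains stood above 1 in both pairs, Col1a2 at 1.83 and 1.38, Col1a1 at 1.41 and 1.27, and Col3a1 at 1.28 and 1.43. Col16a1 was at 1.39 and 2.12. Col11a1 was on the other side, with 189 and 323 CPM at 18 and 2 months and 251 and 655 CPM at 12 and 2 months. Col8a2 went the same way, with 14.0 and 23.3 CPM and then 25.2 and 65.4 CPM. So did Col14a1, with 120 and 210 CPM and then 73.4 and 117 CPM. In version 2 the Col11a1 and Col8a2 values lay at or under those of macrophage and dendritic cell-like cells, which does not show whether they are background. In version 3 they lay above them. What these levels contribute to the fits below was not tested. At least 1.5-fold higher was 1 of 25 collagens and lower 6 at 18 months (all genes 9.01% and 11.4%), and 4 of 27 higher and 8 lower at 12 months (8.7% and 11.6%). None of 29 was called by edgeR, where 0.416% of 12023 genes were (0.258% higher and 0.158% lower), and 9 had an unadjusted p under 0.05, as did 13.0% of all genes. The edgeR log2 fold changes were -1.04 ± 0.19 (SE) for Col11a1 (adjusted p 0.0987), -1.08 ± 0.22 for Col8a2 (adjusted p 0.119), 0.84 ± 0.18 for Col16a1 (adjusted p 0.133) and 0.72 ± 0.18 for Col1a2 (adjusted p 0.168), and DESeq2 called Col11a1 (1.51% of all genes).

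The higher fibroblast-like share was not found within each cluster. Cluster 14 was the class's richest in collagen in every library, at 12.6% and 10.8% of UMIs at 18 and 2 months and 3.94% and 6.62% at 12 and 2 months, and it held 229 and 34 cells at 18 and 2 months and 339 and 58 cells at 12 and 2 months. Its collagen share was thus higher at 18 months (ratio 1.16) and lower at 12 months (ratio 0.595) than in its partner. In cluster 8, which had no fewer than 87 cells in any library, the ratio was 0.88 at 18 over 2 months and 1.11 at 12 over 2 months. Within cluster 8, Col1a1 had 9546 and 11845 CPM at 18 and 2 months and 7106 and 6235 CPM at 12 and 2 months. Col1a2, which stood at 1.83 and 1.38 in the whole class, was at 0.937 and 1.16 in cluster 8 and at 1.46 and 0.587 in cluster 14. Neither cluster showed type I chains higher in both older libraries.

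Other cell markers moved with these values in fibroblast-like cells. The 14 dermal sheath markers summed to 1665 and 2211 CPM at 18 and 2 months, and to 2250 and 4823 CPM at 12 and 2 months. The 20 macrophage and dendritic cell markers summed to 626 and 813 CPM, then 269 and 2801 CPM, and in all but the 2-month version 2 library, where 1 marker was at 0, every one of them had UMIs. Cluster 18 held 32 and 20 cells at 18 and 2 months and 29 and 180 at 12 and 2 months. In cluster 8 alone, Col16a1 and Col14a1 turned direction, to edgeR log2 fold changes of -0.17 and 0.53. The part of these shifts in the fibroblast-like values was not tested further.

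Papilla-like cells were the class in which collagens passed the 4-library test. In edgeR 3 of 27 collagens were called, 2 higher and 1 lower, where 222 of 11730 genes (1.89%) were called, 1.29% higher and 0.605% lower. An unadjusted p under 0.05 was reached by 7 of the 27 and by 11.5% of all genes. Col12a1 had 96.2 CPM at 18 months and 48.2 at 2 months, and 312 CPM at 12 months and 117 at 2 months. Each older library lay above its partner, and the version 3 values lay above those of version 2 at like age. Its edgeR log2 fold change was 1.27 ± 0.19 (SE), with an adjusted p of 0.00177. Col8a2 had 16.8 and 11.4 CPM at 18 and 2 months, and 68.1 and 20.2 CPM at 12 and 2 months. The version 2 ratio of 1.48 had a counting interval of 0.944 to 2.34 that includes 1, while the version 3 ratio was 3.38 (2.86 to 4.00). The edgeR log2 fold change of Col8a2 was 1.41 ± 0.28, with an adjusted p of 0.0134. Col26a1 was lower, with 4.21 and 20.5 CPM at 18 and 2 months (4.87-fold) and 15.9 and 33.5 CPM at 12 and 2 months (2.11-fold), and its edgeR log2 fold change was -1.39 ± 0.29, with an adjusted p of 0.0173.

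These calls rest on a class whose clusters differed in size between the ages. Cluster 1 held 83 and 7 cells at 18 and 2 months and 396 and 759 cells at 12 and 2 months, cluster 0 held 423 and 539 cells at 18 and 2 months, and cluster 20 held 123 and 428 cells at 12 and 2 months. Within cluster 0, Col12a1 had 59.6 and 49.4 CPM at 18 and 2 months, a ratio of 1.21 (0.953 to 1.53), and Col8a2 8.06 and 11.5 CPM. Col26a1 kept its difference in cluster 0, with 2.82 and 20.3 CPM. Within cluster 1 at 12 and 2 months, Col12a1 had 376 and 148 CPM, Col8a2 83.6 and 26.4 CPM and Col26a1 17.4 and 43.1 CPM. Within cluster 20 they had 109 and 61.8, 17.7 and 8.56, and 10.6 and 16.0 CPM at 12 and 2 months. The direction was thus the same in both version 3 clusters for all 3 genes. In the version 2 cluster it was the same for Col12a1, with an interval that includes 1, and for Col26a1, and not for Col8a2.

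**Figure D5:**
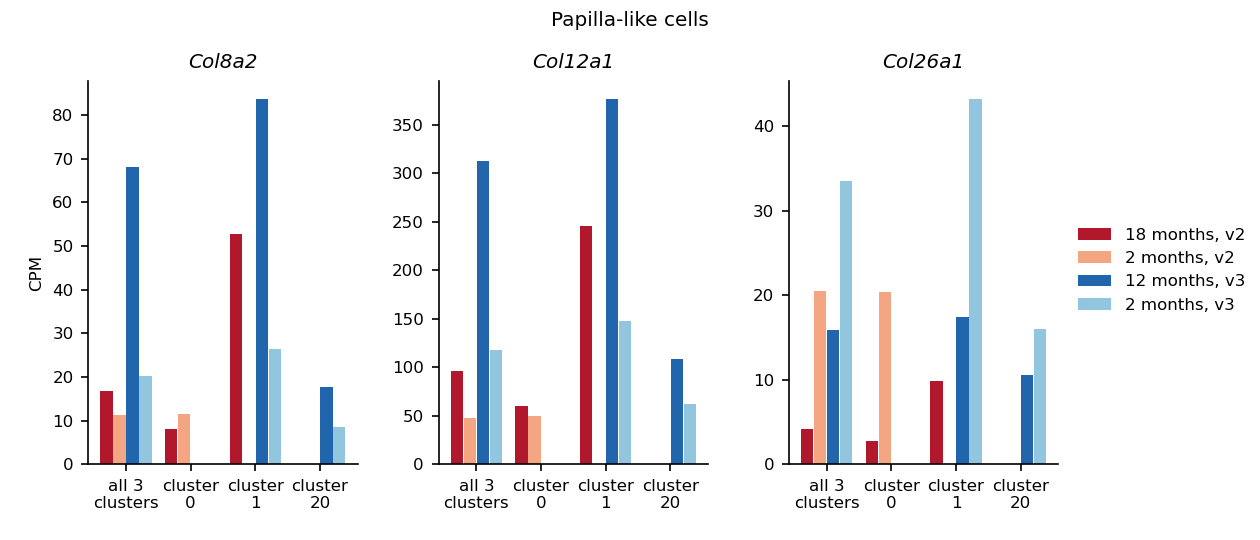
CPM of Col8a2, Col12a1 and Col26a1 in papilla-like cells of each library, for the whole class and for its clusters 0, 1 and 20, with bars only where a library has at least 50 cells. Col26a1 is lower in the older library in every cluster with both ages, and Col12a1 and Col8a2 are higher in the 12-month library than in its partner in clusters 1 and 20.

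Without cluster 1, an alternative chosen after seeing the data, edgeR called none of the 3, with log2 fold changes of 0.58 for Col12a1 (adjusted p 0.476), 0.34 for Col8a2 (adjusted p 0.948) and -1.58 for Col26a1 (adjusted p 0.257). The calls were also lost when the 12-month library was counted as young, as the series text does, and without chemistry as a covariate, and DESeq2 called Col12a1 alone (0.908% of all genes). Beside the calls, the 14 sheath markers summed to 1053 and 1035 CPM in papilla-like cells at 18 and 2 months and to 2195 and 1405 CPM at 12 and 2 months, and the 22 papilla markers to 17732 and 19003 CPM, then 11256 and 17542 CPM. Col12a1 and Col8a2 are both highest in sheath-like cells, and Col26a1 in papilla-like cells. Col12a1 was at 216 and 160 CPM in macrophage and dendritic cell-like cells at 18 and 2 months, above its level in papilla-like cells, and at 62.1 and 68.5 CPM at 12 and 2 months, below it. Col8a2 was likewise at 25.5 and 23.3 CPM in macrophage and dendritic cell-like cells at 18 and 2 months, above the 16.8 and 11.4 CPM of papilla-like cells, and at 8.41 CPM in both version 3 libraries, below them. The version 2 levels of Col12a1 and Col8a2 in papilla-like cells are thus not above those of this 1 class, which does not show whether they are background. What these levels contribute to the calls was not tested.

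The other papilla-like collagens did not pass the test. In sum, collagens were 0.489% and 0.572% of UMIs in papilla-like cells at 18 and 2 months (ratio 0.854), and 0.817% and 0.743% at 12 and 2 months (ratio 1.10). At least 1.5-fold higher were 3 of 24 collagens and lower 2 at 18 months (all genes 8.02% and 6.17%), and 7 of 27 higher and 2 lower at 12 months (7.44% and 12.9%). Among the 7 were the type VI chains Col6a1 at 1.85 and Col6a2 at 1.58, which stood at 0.808 and 0.814 at 18 over 2 months, so the pairs went opposite ways. Col13a1, a transmembrane collagen, had 35.7 and 15.4 CPM at 12 and 2 months but 16.2 and 27.0 CPM at 18 and 2 months. Col23a1, Col15a1 and Col14a1 were below their 2-month level in both pairs, at 0.838 and 0.712, 0.780 and 0.799, and 0.721 and 0.709. The edgeR adjusted p of Col14a1 was 0.305.

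Macrophage and dendritic cell-like cells held a lower collagen share in both older libraries. Collagens were 0.961% and 1.30% of their UMIs at 18 and 2 months, and 0.198% and 0.379% at 12 and 2 months. In these cells the 22 papilla markers summed to 1998 and 5099 CPM, then 522 and 1032 CPM. The 14 sheath markers summed to 1935 and 1596 CPM, then 760 and 1073 CPM. Cluster 2 of the class held 298 and 90 cells, then 309 and 110. Cluster 15 held 71 and 17, then 443 and 565. The part of these shifts in the collagen share was not tested. In both pairs 0 of 21 collagens were at least 1.5-fold higher and 11 of 21 at least 1.5-fold lower, where 7.18% and 26.8% of all genes were at 18 months and 7.22% and 27.3% at 12 months.

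Enzymes and receptors that act on collagen were read from 4 lists. Of 22 genes of collagen folding and modification, 21 were tested in all kept cells. EdgeR called 0 of them (0.0% of all genes), and 0 had an unadjusted p under 0.05 (11.0% of all genes). Their median log2 fold change was 0.17 and 15 of 21 lay above 0, where the median over all genes was -0.0016. Serpinh1, the collagen chaperone of the endoplasmic reticulum, had 1076 and 742 CPM at 18 and 2 months, and 1123 and 1042 CPM at 12 and 2 months. Creb3l1, a transcription factor known to drive type I collagen in bone, had 89.4 and 36.3 CPM, then 117 and 112 CPM, and P3h2, a prolyl 3-hydroxylase, had 4.53 and 5.10 CPM, then 2.18 and 3.10 CPM. Serpinh1 and Creb3l1 were well above the partner library at 18 months and close to it at 12 months.

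Of 14 genes of propeptide cleavage and crosslinking, 12 were tested in fibroblast-like cells and 1 was called, where 0.416% of 12023 genes were. Pcolce2, which speeds removal of the C-terminal propeptide of fibrillar collagens, had 413 and 145 CPM there at 18 and 2 months, and 317 and 118 CPM at 12 and 2 months. Both older libraries lay well above both 2-month libraries. Its edgeR log2 fold change was 1.52 ± 0.13 (SE), with an adjusted p of 0.0327, and in cluster 8 alone it was 1.81. The call was lost with the 12-month library counted as young and without chemistry as a covariate. Over the 12, 10 had a log2 fold change above 0, with a median of 0.33 where that of all genes was -0.01.

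Of 9 collagen receptors and uptake genes, all 9 were tested in all kept cells. EdgeR called 0 of them (0.0% of all genes), and 3 had an unadjusted p under 0.05, as did 11.0% of all genes. Their median log2 fold change was 0.12, where that of all genes was -0.0016. Itga11, a receptor for fibrillar collagen on fibroblasts, had 44.8 and 20.5 CPM at 18 and 2 months and 51.3 and 42.8 CPM at 12 and 2 months. Itga1, a receptor that prefers type IV collagen, had 10.5 and 12.0 CPM, then 19.6 and 36.7 CPM, and Lair1, an inhibitory receptor of immune cells, 0.834 and 0.436 CPM, then 2.81 and 2.04 CPM.

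Of 6 proteases that degrade collagen, 5 were tested in all kept cells, where 0 were called by edgeR, 4 had an unadjusted p under 0.05, and all 5 had a log2 fold change above 0, with a median of 1.56. Over all genes 0.0% were called, 11.0% had an unadjusted p under 0.05 and the median was -0.0016. Beside these values, fibroblast-like cells were 29.6% and 12.9% of cells at 18 and 2 months and 18.1% and 11.3% at 12 and 2 months, and macrophage and dendritic cell-like cells 15.2% and 6.38%, then 19.0% and 12.5%. Their part in these values was not tested. Ctsk, a lysosomal collagenase, had 647 and 192 CPM at 18 and 2 months and 546 and 247 CPM at 12 and 2 months. Mmp2, a gelatinase, had 310 and 79.9 CPM, then 178 and 79.2 CPM, and Mmp9, the gelatinase of myeloid cells, 9.12 and 3.80 CPM, then 19.0 and 2.57 CPM. Every older library held more of these 3 than either 2-month library. In fibroblast-like cells all 6 had a log2 fold change above 0 with a median of 1.49, where the median over all genes was -0.01. EdgeR called 0 of them (0.416% of all genes), with an adjusted p of 0.0566 for Mmp2 (1.23 ± 0.15 SE) and 0.0808 for Ctsk (1.56 ± 0.25 SE).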

How the data were processed

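The authors deposited matrices of raw counts, whole UMI counts per gene and cell barcode. The submitters' processing notes name Cell Ranger 2.0.1, STAR, Seurat 2.1.0, mm10 and GRCm38.p5, and the version 3 file headers give software version 3.0.1. Other steps are not given in the sources used here.

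Cells were kept from 500 genes and 1000 UMIs upward, with at most 10% mitochondrial UMIs, and the 3% with the highest doublet score in each library were removed. Cells were clustered without collagen genes (scanpy 1.11.5, 2000 variable genes, 30 components, Leiden resolution 0.5), giving 22 clusters, and a class name needed 3 markers. No deposited column was left unused (0).

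UMIs were summed per library and class. Within-chemistry ratios carry exact conditional Poisson 95% intervals. Sums were tested with edgeR 4.0.16 (TMM, quasi-likelihood, Benjamini-Hochberg adjustment over all genes), 2 libraries a side with chemistry as covariate, and with DESeq2 1.42.0 as an alternative. P-values measure only the spread between these pooled libraries. The fits were tested on simulated data. The series text counts 12 months as young, and here it is tested with 18 months, the other coding being an alternative.

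Named collagens are the 20 with the highest mean CPM, any past the test, the top 3 of each class and those at least 1.5-fold in the same direction in both pairs with 30 or more UMIs, 25 in all. Of the pathway lists, members past the test are named, or else the 3 furthest from 0 with one sign in both pairs. Others named for their class or an unadjusted p were chosen after their values were seen. The members and lists were chosen with earlier results of these data known.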

Additional observations from a re-analysis of the deposited data

Results flagged for a closer look

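Col9a1 and Col10a1 went opposite ways in the 2 pairs, and the difference between the pairs was not tested. Col9a1 was 4.64-fold at 18 over 2 months in all kept cells, with 61 and 11 UMIs, and stood at 0.419 at 12 over 2 months, with 13 and 43 UMIs. Its UMIs were spread over 56 and 11 cells at 18 and 2 months and 12 and 38 cells at 12 and 2 months, and at most 3 came from a single cell.

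Col10a1, the collagen of hypertrophic cartilage, stood at 0.20 at 18 over 2 months, with 23 and 96 UMIs, and at 50.8 at 12 over 2 months, with 330 and 9 UMIs. Of the 96 UMIs at 2 months in version 2, 90 lay in a single cell, and of the 330 at 12 months 133 did. In all, 8 and 4 cells at 18 and 2 months and 28 and 9 cells at 12 and 2 months held a UMI. The gene overlaps Nt5dc1, which lies on the opposite strand.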

How the results depend on the processing

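The chemistry covariate pairs each older library with its 2-month partner, so the reported fit is the paired one and the fit without chemistry the unpaired one. No further paired analysis was possible because the groups share fewer than 2 replicate numbers. Leaving out a library from the chemistry-adjusted fit leaves no residual degrees of freedom, so no counts of calls are given without a replicate. The gene values are then those of the other pair, in papilla-like cells a log2 ratio of 0.99 to 1.41 for Col12a1, 0.56 to 1.75 for Col8a2 and -2.24 to -1.07 for Col26a1.

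With DESeq2 the collagens called were 1 in all kept cells (0 in edgeR), 1 in papilla-like cells (3 in edgeR) and 1 in fibroblast-like cells (0 in edgeR), and pathway genes 4 in all kept cells (0 in edgeR) and 3 in fibroblast-like cells (1 in edgeR). All genes called were 2.69%, 0.908% and 1.51% in these with DESeq2, against 0.0%, 1.89% and 0.416% in edgeR. Without a filter on low counts there were 2 collagens and 1 pathway gene in sheath-like cells, 2 pathway genes in papilla-like cells, and 4 collagens and 5 pathway genes in fibroblast-like cells, where 2.58%, 2.61% and 2.38% of all genes were called. At resolution 1 there were 8 collagens and 4 pathway genes in papilla-like cells, and 2 and 3 in fibroblast-like cells, and all genes called were 5.35% and 1.73%. The papilla-like class was made up differently there, with 592 and 528 cells at 18 and 2 months and 769 and 1467 at 12 and 2 months. It took in a cluster of 840 cells that shared the top genes Megf11, Npr3 and Smoc1 with cluster 5 of the sheath-like class. With no cells removed by doublet score there was 1 pathway gene in papilla-like cells, and 1 collagen and 3 pathway genes in fibroblast-like cells (all genes 2.85% and 1.45%). Median-ratio size factors gave 1 pathway gene in papilla-like cells (all genes 2.95%). With 12 months counted as young, and without chemistry as a covariate, 0 collagens were called in papilla-like cells and 0 pathway genes in fibroblast-like cells, as were 0.0% of all genes. Chosen after seeing the data were cluster 5 alone (1 collagen, 1 pathway gene and 2.92% of all genes in sheath-like cells), cluster 8 alone (1, 4 and 2.11% in fibroblast-like cells), papilla-like cells without cluster 1 (0 collagens and 0.822% of all genes) and leaving out shared barcodes (4 pathway genes and 1.35% of all genes in fibroblast-like cells). The cause of these moves was not tested.

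The ratio of summed collagen at 18 over 2 months, 2.53, was 2.60 over all deposited barcodes, 2.50 with no doublet removal, 2.34 with TMM scaling, 2.58 over non-collagen UMIs and 1.56 at fixed class shares. That at 12 over 2 months, 1.09, was 1.07, 1.10 and 1.17 under the first 3 of these, 1.10 without shared barcodes and 0.942, the other way, at fixed shares. The number of collagens at least 1.5-fold different at 18 months, 23, was 10 at fixed shares and 15 at 2-fold. Shares over all genes were not computed for these settings. In cluster 8 alone the log2 fold changes of Col14a1 (0.53) and Col16a1 (-0.17) reversed. Of 194 alternative fitted values of named genes, 138 were counted as unchanged. For another fit this meant the same direction and side of the threshold. For a left-out library it meant a value within the SE of the reported one. Of 154 ratios, 138 kept their direction and were still at least 1.5-fold. The highest class was the same at resolution 1 for 32 of 34 collagens. Depth limits the collagens with few UMIs, since 34 of 44 had at least 100 over all libraries.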

Other observations

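Cells with pericyte and vascular smooth muscle markers, 250 and 218 at 18 and 2 months in version 2, were described in version 2 alone. They held more Col3a1 than Col1a1, with 662 and 708 CPM of Col3a1 and 469 and 269 CPM of Col1a1 at 18 and 2 months, and the ratio of the 2 chains was 1.41 and 2.63. The same ratio ran from 0.770 to 2.48 in papilla-like cells and from 0.584 to 1.57 in arrector pili-like cells. In neither of these classes did Col3a1 exceed Col1a1 in every library. Col8a1 had 70.7 and 33.3 CPM in the cells with pericyte and vascular smooth muscle markers, and Col4a1 241 and 364 CPM. In version 3 only 12 and 29 such cells were kept at 12 and 2 months, and no value is drawn from them.

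Unnamed cells numbered 36 and 231 at 18 and 2 months and 58 and 74 at 12 and 2 months. They held little collagen, 22.4 and 6.32 UMIs per cell in version 2 and 16.9 and 10.6 in version 3. These counts are not scaled for depth. Cluster 3 held 216 of the 2-month version 2 cells, and its median depth was as low as 0.099 of that of all kept cells of a library. Its top genes held the keratinocyte markers Krt6a, Krt10 and Krt1. Those of cluster 17, the other unnamed cluster, held Krt25 and Krt71.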
